A study of Mus musculus with 9 samples.

Results

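The 10 smooth muscle contractile genes Acta2, Actg2, Tagln, Myh11, Cnn1, Cnn2, Cnn3, Myl9, Tpm1 and Tpm2 were followed across 3 subpopulations of mouse activated hepatic stellate cells (aHSCs). Members were found by gene symbol, or failing that by an older symbol, among the 45281 gene probes of the Illumina MouseWG-6 v2.0 bead array. A total of 20 probes matched 9 of the 10 genes, and Cnn3 matched none and was not analysed here. Of these, 15 probes of 8 genes were detected on at least 3 arrays and were tested, among 20573 tested probes of the whole array. The only Cnn1 probe was detected on 0 of 9 arrays.

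All cells came from WT1GFP/+ mice on the C57/Bl6 background and all samples are labelled male, although the methods allow for both sexes in culture work. In these mice green fluorescent protein (GFP) replaces 1 copy of WT1 and reports its activity. WT1 encodes a transcription factor of the embryonic mesothelium. WT1-high cells (GFP high) and WT1-intermediate cells (GFP low) were sorted directly from livers scarred by repeated carbon tetrachloride (CCl4) injection. WT1-negative cells (GFP negative) were sorted after quiescent stellate cells of uninjured mice had spent 7 days on plastic. Each group held 3 arrays, replicates 1, 8 and 29 for WT1-high, 1, 8 and 30 for WT1-intermediate and 3, 11 and 14 for WT1-negative. The positive groups differ from the negative group in WT1 reporter status and also in origin, liver or culture dish, and these cannot be told apart. No GFP-negative cells from injured liver and no GFP-positive cells from culture were among the arrays.

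In smooth muscle and in myofibroblasts, actin filaments are pulled by myosin II, whose activity is set by phosphorylation of its regulatory light chain, while tropomyosins, calponins and transgelin lie along the filaments. Stellate cells store vitamin A in the quiescent state, and on activation they turn on Acta2, the usual marker of the myofibroblast, and become contractile. Many genes of this set are transcribed through serum response factor (SRF), which binds CArG boxes in their promoters and is aided by myocardin and its relatives.

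CArG boxes are shown first because they are the shared promoter element by which these genes are usually recognised. The search covered 250 bases before to 50 bases after each gene's start in RefSeq promoters of build GRCm38.p6, available for 7 of the 10 genes. A CArG box was counted where CC and GG flanked 6 central bases that were all A or T, and a CArG-like box where at least 5 of the 6 were. The form is its own reverse complement, so reading 1 strand covered both, and every CArG box is also counted as CArG-like. Of all 32851 promoters, 1.63% held a CArG box and 9.98% a CArG-like box. Cnn2 and Myl9 held a CArG box and Acta2, Cnn2 and Myl9 a CArG-like box, whereas these letters were not in the windows of Cnn1, Cnn3, Tpm1 and Tpm2. Each match is given with 10 bases on either side, 5′ to 3′ on the gene's strand, with the box in capitals.
Acta2, chr19:34255438-34255467, minus strand, first base of the box 84 bases before the start: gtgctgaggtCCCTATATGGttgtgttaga
Acta2, chr19:34255388-34255417, minus strand, 34 bases before the start: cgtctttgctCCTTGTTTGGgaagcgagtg
Cnn2, chr10:79988534-79988563, plus strand, 56 bases before the start: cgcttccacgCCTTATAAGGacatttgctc
Myl9, chr2:156775293-156775322, plus strand, 161 bases before the start: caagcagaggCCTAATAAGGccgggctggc
Myl9, chr2:156775355-156775384, plus strand, 99 bases before the start: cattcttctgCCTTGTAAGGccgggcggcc
Both boxes of Acta2 held 1 central base other than A or T. A match is a description of the sequence, and binding was not measured.

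Some probes of a gene do not count as separate evidence, and the pair from Acta2 is shown for that reason. Capitals mark the 49 of 50 bases that they share.
Acta2, the third brightest of its tested probes: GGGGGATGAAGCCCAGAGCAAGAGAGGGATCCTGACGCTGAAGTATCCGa
Acta2, the dimmest of its tested probes: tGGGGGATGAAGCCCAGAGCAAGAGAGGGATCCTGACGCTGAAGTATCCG
The Myl9 probes do not overlap, and they are shown because both gave the same picture below.
Myl9, brighter probe: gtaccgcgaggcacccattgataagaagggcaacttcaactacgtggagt
Myl9, dimmer probe: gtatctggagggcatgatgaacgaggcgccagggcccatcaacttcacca
No stretch of 16 bases was shared between a probe of these 10 genes and an array probe of any other symbol. Whole transcripts of the related actins, myosin light chains and tropomyosins were not searched.

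Mean intensity was 147 to 289 units per array, with 17253 to 19774 detected probes. No probe carried the symbol Wt1, so the sort could not be read from the gene itself. Of 15 stellate cell markers 10 were tested, and Ecm1 and Cygb were detected on all arrays, whereas Gfap, Lhx2 and Vipr1 were detected on none and Lrat on 1. Markers of other cells moved with the groups. The 10 tested mesothelial markers were all called higher in both positive groups than in the cultured cells. The share of all probes called higher was 26.5% for the WT1-high group and 24.4% for the WT1-intermediate group. By the tested probe, 5 of the 10 markers were detected on no cultured array, and 3 on every cultured array. Those 5 passed the filter only through the liver arrays and therefore had to differ. Of 17 tested macrophage markers 12 were called lower in WT1-high cells than in WT1-intermediate cells and none higher. Between these groups 3.55% of all probes were called in either direction. The summed macrophage intensity was 5527 to 8723 in WT1-high, 17989 to 29569 in WT1-intermediate and 57488 to 63278 in WT1-negative arrays. Of 19 tested striated muscle genes 18 were called lower in WT1-high arrays and 19 in WT1-intermediate arrays than on the cultured arrays. Over all probes 33.1% and 33.6% were called lower. The summed striated muscle intensities were 588 to 879, 562 to 600 and 10462 to 14787 in WT1-high, WT1-intermediate and WT1-negative cells. By the tested probe, 13 of these 19 genes were detected on no WT1-high array and 11 on no WT1-intermediate array. Those detected in neither liver group passed the filter only through the cultured arrays and therefore had to differ. Of the 5 genes detected on all 9 arrays, 4 were called lower in WT1-high and all 5 in WT1-intermediate cells. Skeletal muscle actin Acta1, cardiac actin Actc1 and fast light chain Myl1, named after their values were seen, were detected only on the WT1-negative arrays. The part of these cells or transcripts in the results below was not tested.

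**Figure D1:**
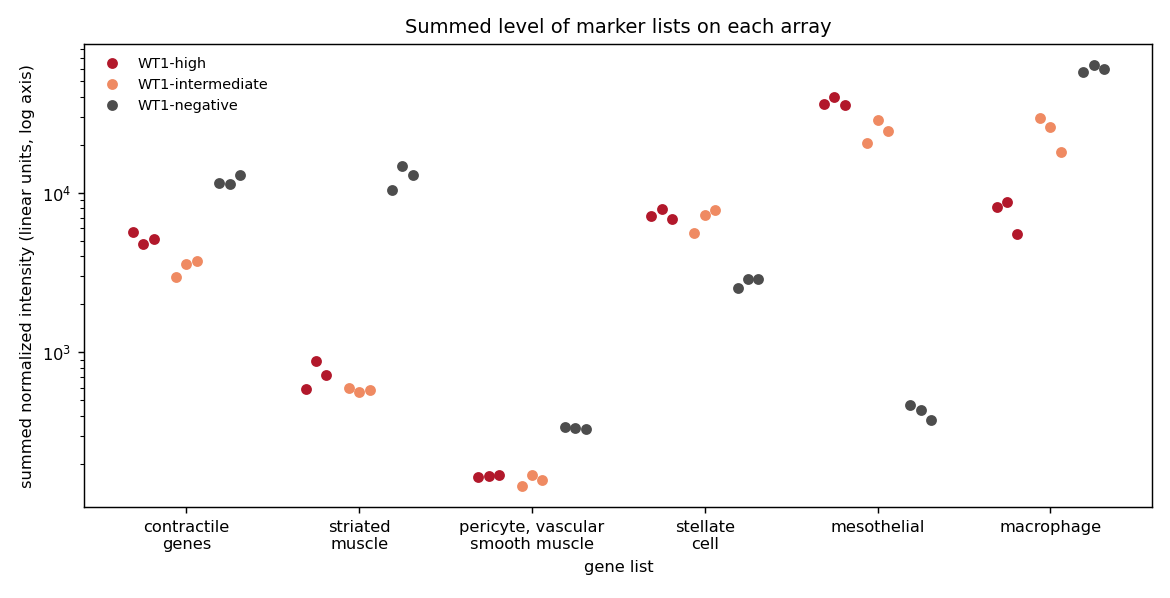
Summed normalized intensity (linear units on a log axis) of the tested genes of 6 lists on each of the 9 arrays, 1 point per array, coloured by group. The striated muscle sum is 562 to 879 on the 6 arrays from liver and 10462 to 14787 on the 3 cultured arrays, and the macrophage sum separates all 3 groups.

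Acta2, Actg2, Tagln and Myl9 were lower in both liver groups than in the cultured cells, Cnn2 was higher in WT1-high and Myh11 in WT1-intermediate cells, and Tpm1 and Tpm2 were lower in WT1-intermediate cells. Between the liver groups Acta2 alone was called. Levels are normalized log2 intensities, and they are compared only within a probe. Each gene is represented by its tested probe with the highest mean over all arrays. A call is an adjusted p under 0.05 by limma's moderated two-sided test with Benjamini-Hochberg adjustment over all 20573 probes. In WT1-high against WT1-negative cells, 5 of 8 genes were called, beside 59.6% of all probes tested. Of these 4 were lower in WT1-high cells (33.1% of all probes were called lower) and 1 was higher (26.5%). In WT1-intermediate against WT1-negative cells, 7 of 8 genes were called, beside 58% of all probes, with 6 lower (33.6% of all probes) and 1 higher (24.4%). In WT1-high against WT1-intermediate cells 1 of 8 genes was called, beside 3.55% of all probes, and it was higher (0.904% of all probes). Groups did not overlap for 5 of 8 genes in that comparison, beside 20.1% of all probes. Of the 730 probes called between the liver groups 25.5% were higher in WT1-high cells, but under median scaling 95.5% of 2684 were. For WT1-intermediate against WT1-negative cells the share that was higher was 42.1%, and 23.1% under median scaling.

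The median log2 difference over the 8 genes was -1.05 for WT1-high minus WT1-negative, against -0.10 over all probes tested. For WT1-intermediate minus WT1-negative it was -1.43 against -0.13, and for WT1-high minus WT1-intermediate 0.31 against 0.05. Placing Actg2 at its bound where it was undetected could not move these medians, because it remained the lowest of the 8 differences. The comparisons share arrays, so they are not independent of each other. RNA was pooled from many sorted cells, and fewer contractile cells cannot be told apart from less RNA per cell.

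**Figure D2:**
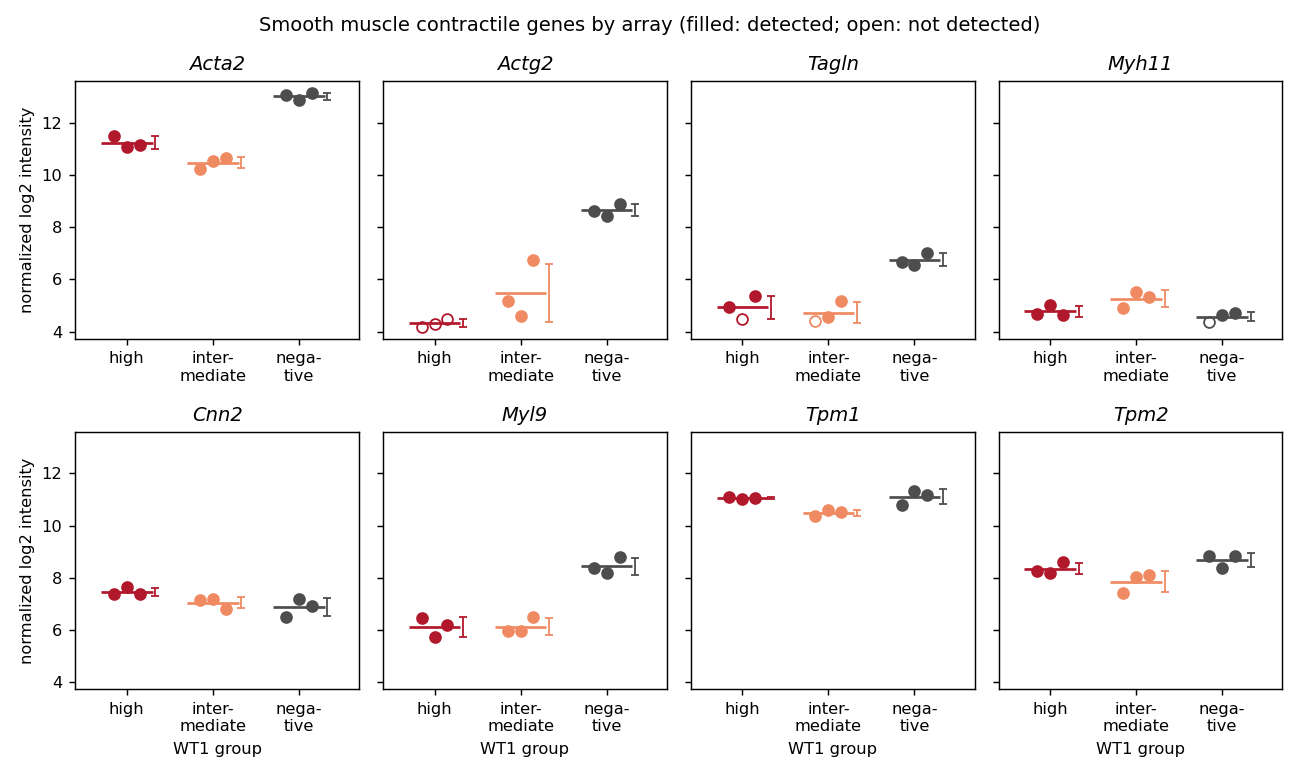
Normalized log2 intensity of the 8 tested genes in each array, by group, for the probe that represents the gene. Filled points were detected and open points were not, horizontal lines are means and bars beside them are SD (n = 3), and heights are not comparable between genes. Acta2, Actg2, Tagln and Myl9 lie higher on all 3 cultured arrays than on any liver array.

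Both actins were lower in the liver groups than in the cultured cells. Acta2 encodes smooth muscle alpha actin. Its level was 11.50, 11.05 and 11.14 in WT1-high replicates 1, 8 and 29, 10.23, 10.52 and 10.64 in WT1-intermediate replicates 1, 8 and 30, and 13.04, 12.87 and 13.12 in WT1-negative replicates 3, 11 and 14. The 3 groups did not overlap, with cultured cells at the top and WT1-intermediate cells at the bottom. WT1-high cells were 3.44-fold lower than WT1-negative cells (log2 difference -1.78, SE 0.17, limma adjusted p = 5.72e-06), and WT1-intermediate cells were 5.84-fold lower (log2 difference -2.55, SE 0.17, limma adjusted p = 5.17e-07). The other 3 tested Acta2 probes were called lower in both comparisons as well, by 1.88 to 2.13 and by 2.77 to 3.00 on the log2 scale. The fifth Acta2 probe was detected on no array.

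Within the liver, Acta2 was 1.70-fold higher in WT1-high cells than in WT1-intermediate cells (log2 difference 0.76, SE 0.17, limma adjusted p = 0.0349). It was higher in WT1-high cells in 3 of 3 animals, by 1.27, 0.53 and 0.50 on the log2 scale. Of the other 3 probes 1 was called (limma adjusted p = 0.0287), while the overlapping pair printed above gave differences of 0.92 and 0.89 with limma adjusted p = 0.0665 and 0.0809. The call was lost on leaving out any 1 of 7 arrays (all 3 of WT1-high, replicates 1 and 8 of WT1-intermediate, replicates 3 and 14 of WT1-negative), with limma adjusted p between 0.0565 and 0.132. It held without WT1-intermediate replicate 30 (0.0361) and without WT1-negative replicate 11 (0.0421). The paper lists Acta2 as not differentially expressed between these groups. Its methods state no filter on dim probes, and without that filter Acta2 was not called here either (limma adjusted p = 0.0743). Macrophage genes were lower in WT1-high cells in the same comparison, as given above, and their part was not tested.

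Actg2 encodes smooth muscle gamma actin, the enteric form. Its level was 4.20, 4.30 and 4.48 in WT1-high cells, where it was detected on 0 of 3 arrays, and 5.17, 4.59 and 6.73 in WT1-intermediate cells. In WT1-negative cells it reached 8.62, 8.43 and 8.89. WT1-high cells were at least 17.2-fold lower than WT1-negative cells, measured against the background limit of the arrays (limma adjusted p = 5.30e-06). WT1-intermediate cells were also lower than WT1-negative cells (log2 difference -3.15, SE 0.41, limma adjusted p = 6.87e-05). Without background correction the differences of WT1-high and WT1-intermediate cells were -2.23 and -1.82, still called. Between the liver groups Actg2 had the opposite sign to Acta2 and was not called. The WT1-intermediate mean of 5.50 was at least 1.93-fold above the background limit of the WT1-high arrays (WT1-high mean 4.33, limma adjusted p = 0.166), and all 3 WT1-intermediate arrays lay above all 3 WT1-high arrays. The log2 difference within an animal was -0.97, -0.29 and -2.25, the last from WT1-intermediate replicate 30, the highest array of its group. Leaving out 1 array moved the difference from -1.62 without WT1-intermediate replicate 8, when it was called (limma adjusted p = 0.0442), to -0.58 without WT1-intermediate replicate 30. With the animal as a fixed block the difference was called (limma adjusted p = 0.0457), and with the animal as a random block it was not (0.0587).

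Among the proteins that lie along the filaments, Tagln followed Acta2 and the calponins did not. Tagln encodes transgelin (SM22), which binds and bundles actin. Its level was 4.97, 4.48 and 5.37 in WT1-high cells, 4.41, 4.57 and 5.19 in WT1-intermediate cells and 6.66, 6.56 and 7.03 in WT1-negative cells. Both liver groups had 2 of 3 arrays with detection. Tagln was 3.51-fold lower in WT1-high (log2 difference -1.81, SE 0.26, limma adjusted p = 1.10e-04) and 4.07-fold lower in WT1-intermediate cells (log2 difference -2.02, SE 0.26, limma adjusted p = 5.60e-05) than in WT1-negative cells. Without background correction these differences were -0.72 and -0.78, still called. The liver groups overlapped, with a log2 difference of 0.21 (SE 0.26). A second Tagln probe was detected on 1 of 9 arrays and was not tested.

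Cnn1 encodes basic calponin, found in differentiated smooth muscle. Its probe lay between 4.21 and 4.42 on all 9 arrays, not above background on any. Cnn2 encodes the calponin of non-muscle and smooth muscle cells. It was the only member called higher in WT1-high than in WT1-negative cells, at 7.37, 7.63 and 7.39 against 6.52, 7.20 and 6.92 (log2 difference 0.59, SE 0.19, limma adjusted p = 0.0212). That call was lost without WT1-high replicate 8 (limma adjusted p = 0.0716) or WT1-negative replicate 3 (limma adjusted p = 0.102). WT1-intermediate arrays read 7.17, 7.18 and 6.82 and overlapped the WT1-negative arrays (log2 difference 0.18, SE 0.19).

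The probes of Cnn2 disagreed on the size of the difference. The dimmer one is given because its reading changes the call between WT1-intermediate and WT1-negative cells.
Cnn2, dimmer probe: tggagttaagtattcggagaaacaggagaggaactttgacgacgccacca
It read 5.78, 5.96 and 5.71 in WT1-high, 6.06, 5.71 and 5.78 in WT1-intermediate and 4.52, 4.64 and 4.97 in WT1-negative cells. Both liver groups were called higher than WT1-negative cells with it, by 1.11 (limma adjusted p = 1.72e-04) and 1.14 (limma adjusted p = 1.54e-04) on the log2 scale. Between the liver groups the brighter probe gave 0.41 (SE 0.19) and the dimmer one -0.03 (SE 0.17), neither of them called.

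**Figure D3:**
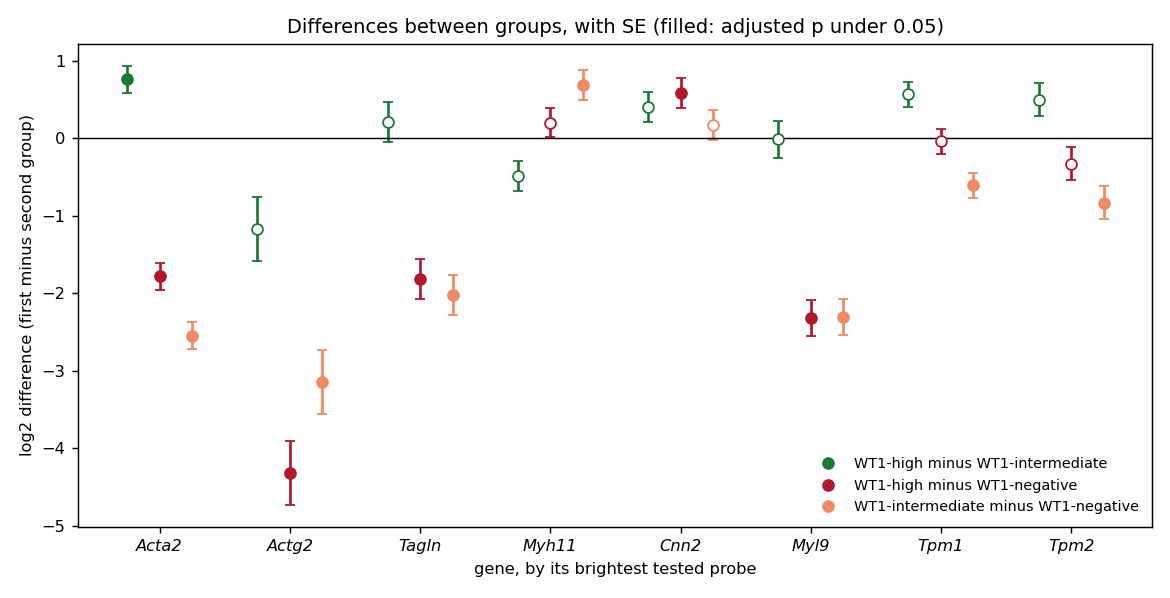
Log2 difference of the 8 tested genes in the 3 comparisons, as first minus second group, with SE from the fit (n = 3 arrays per group). Filled points have an adjusted p under 0.05. Acta2, Actg2, Tagln and Myl9 lie below 0 in both comparisons with WT1-negative cells, Cnn2 lies above 0, and Acta2 has the only filled point between the liver groups.

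The light chain Myl9 and the heavy chain Myh11 were called in opposite directions in WT1-intermediate against WT1-negative cells, with Myh11 near background. Myl9 encodes the regulatory light chain of smooth muscle myosin, the chain whose phosphorylation starts contraction. Its level was 6.45, 5.72 and 6.20 in WT1-high cells, 5.95, 5.96 and 6.50 in WT1-intermediate cells and 8.36, 8.17 and 8.79 in WT1-negative cells. It was 4.99-fold lower in WT1-high than in WT1-negative cells (log2 difference -2.32, SE 0.24, limma adjusted p = 8.28e-06) and 4.94-fold lower in WT1-intermediate cells (log2 difference -2.31, SE 0.24, limma adjusted p = 1.06e-05). Without background correction these differences were -1.47 and -1.46, still called. The dimmer Myl9 probe gave -2.59 and -2.44. Between the liver groups the log2 difference was -0.01 (SE 0.24), and the arrays overlapped.

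Myh11 encodes the smooth muscle myosin heavy chain, a late marker of smooth muscle differentiation. Levels were low throughout, at 4.67, 5.02 and 4.66 in WT1-high, 4.93, 5.54 and 5.34 in WT1-intermediate and 4.38, 4.64 and 4.71 in WT1-negative cells. It was the only member called higher in WT1-intermediate cells than in WT1-negative cells (log2 difference 0.69, SE 0.19, limma adjusted p = 0.00899), and WT1-negative replicate 3 was not detected. Before background correction and normalization, its mean intensity was 97.9 units in WT1-intermediate and 101 in WT1-negative arrays. Over 18 alternatives the log2 difference lay between 0.19 and 0.88, and it was called in 17. The WT1-high arrays overlapped both other groups. In each of the 3 animals Myh11 was lower in WT1-high cells than in WT1-intermediate cells, by 0.26, 0.52 and 0.69 on the log2 scale, with a mean difference of -0.49 (SE 0.19, limma adjusted p = 0.21). A second Myh11 probe was detected on no array.

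Tropomyosins stabilise actin filaments and gate the access of myosin. Tpm1 read 11.08, 11.01 and 11.07 in WT1-high, 10.37, 10.58 and 10.51 in WT1-intermediate and 10.77, 11.33 and 11.18 in WT1-negative cells. WT1-intermediate cells were the low group, below WT1-negative cells by 1.52-fold (log2 difference -0.61, SE 0.16, limma adjusted p = 0.00811). WT1-high and WT1-negative arrays overlapped (log2 difference -0.04, SE 0.16). WT1-high exceeded WT1-intermediate cells in 3 of 3 animals with no overlap, by 0.57 (SE 0.16, limma adjusted p = 0.0878), and with the animal as a random block this was called (limma adjusted p = 0.0275), but not with the animal as a fixed block (0.0547). The second Tpm1 probe gave 0.68, -0.05 and -0.73 in the 3 comparisons, in the order high minus intermediate, high minus negative and intermediate minus negative.

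For Tpm2, 2 tested probes gave different pictures. The probe with the higher mean read 8.27, 8.20 and 8.60 in WT1-high, 7.40, 8.05 and 8.11 in WT1-intermediate and 8.83, 8.38 and 8.84 in WT1-negative cells.
Tpm2, probe with the higher mean: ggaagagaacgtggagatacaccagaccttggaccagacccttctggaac
With it, WT1-intermediate cells were lower than WT1-negative cells by 1.78-fold (log2 difference -0.83, SE 0.22, limma adjusted p = 0.00697), and the log2 difference of WT1-high cells was -0.33 (SE 0.22, limma adjusted p = 0.217). The other probe was detected on 3 of 3 WT1-negative arrays, at 7.91, 8.52 and 8.39, and on no liver array, where it lay between 4.18 and 4.49. By that probe WT1-high cells were at least 13.2-fold lower (limma adjusted p = 1.99e-08) and WT1-intermediate cells at least 13.1-fold lower (limma adjusted p = 2.34e-08). This probe passed the filter only through the WT1-negative arrays and therefore had to differ. The striated muscle sum was also highest on these 3 arrays, and its part in this reading was not tested. The third Tpm2 probe was detected on no array. WT1-high cells lay above WT1-intermediate cells in 3 of 3 animals by the first probe (0.50, SE 0.22, limma adjusted p = 0.265).

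Of 20 other structural genes of smooth muscle 16 were tested. In WT1-high against WT1-negative cells 9 were called higher and 1 lower, beside 26.5% and 33.1% of all probes, with a median log2 difference of 0.71. In WT1-intermediate against WT1-negative cells 6 were called higher and 2 lower (median 0.34), beside 24.4% and 33.6% of all probes. The latter counts were 3 higher among genes detected on all 9 arrays, and 5 lower under median scaling. Pdlim3, a linker of actinin at the sarcomere and at stress fibres, was 9.06-fold and 6.87-fold higher in WT1-high and WT1-intermediate cells than in the cultured cells (limma adjusted p = 2.09e-07 and 7.67e-07). Csrp2, a LIM protein of smooth muscle and stellate cells, was 5.43-fold and 3.51-fold higher (limma adjusted p = 2.42e-06 and 2.76e-05), and Fhl1, another LIM protein, 5.06-fold and 3.70-fold (limma adjusted p = 4.96e-06 and 3.10e-05). Cald1, caldesmon, was not detected in WT1-negative cells and was at least 4.81-fold and at least 3.50-fold higher (limma adjusted p = 1.30e-06 and 7.69e-06), but its second probe gave log2 differences of 0.35 and -0.05.

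Between the liver groups, Des was the 1 structural gene called of 16. Des encodes desmin, an intermediate filament protein of muscle and stellate cells. It was 2.63-fold higher in WT1-high cells (log2 difference 1.40, SE 0.33, limma adjusted p = 0.0453). Leaving out 1 array in turn, its limma adjusted p lay between 0.0154 and 0.171 and it was called in 2 of 9 fits. Of the 16 genes 14 had a positive difference, with a median of 0.36. Des was also the only gene of the striated muscle list that was not called lower in WT1-high than in WT1-negative cells.

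Regulators of contraction were measured in part. Of 14 genes 7 were tested, and 2 were called higher and 2 lower in each comparison with WT1-negative cells, shares near those of all probes given above. Itpr1, a calcium release channel, was 5.09-fold and 4.65-fold higher in WT1-high and WT1-intermediate cells (limma adjusted p = 6.37e-06 and 1.20e-05). Prkg1, the cyclic GMP-dependent kinase that relaxes smooth muscle, was 2.70-fold and 2.38-fold higher (limma adjusted p = 6.24e-04 and 0.00164). Under median scaling Prkg1 was not called in WT1-intermediate cells. Its second probe gave log2 differences of 0.04 and 0.29, and that of Itpr1 gave 0.27 in WT1-high cells. The kinases Rock1 and Rock2, which inhibit myosin phosphatase, were lower. Rock1 was lower by 0.77 and 0.84 on the log2 scale (limma adjusted p = 0.00505 and 0.00313). Rock2 was lower by 0.59 and 0.76 (limma adjusted p = 0.0390 and 0.0127), but its second probe gave 0.92 and 0.42, and the call in WT1-high cells was lost without WT1-high replicate 1 or 29 or WT1-negative replicate 11 or 14. None of the 7 was called between the liver groups.

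Non-muscle actomyosin genes were divided. Of 17 genes 15 were tested, with 5 called higher and 5 lower in WT1-high against WT1-negative cells, beside 26.5% and 33.1% of all probes. In WT1-intermediate against WT1-negative cells 3 were called higher and 6 lower, beside 24.4% and 33.6%. The medians of the list were -0.06 and -0.15, close to those of all probes. Under median scaling 1 was called higher and 10 lower in WT1-intermediate cells, where Vcl (0.70) and Myh10 (0.42) lost the calls given next. Vcl, the focal adhesion protein vinculin, was 3.32-fold and 2.65-fold higher (limma adjusted p = 1.52e-05 and 8.47e-05). Myl12b, a regulatory light chain of non-muscle myosin, was 2.69-fold and 2.61-fold higher (limma adjusted p = 1.26e-05 and 1.94e-05), the direction opposite to that of Myl9. Myh10, a non-muscle myosin heavy chain, was 2.67-fold and 2.13-fold higher (limma adjusted p = 6.60e-04 and 0.00378). Pfn1, profilin, was 3.02-fold and 2.46-fold lower (limma adjusted p = 2.69e-05 and 1.40e-04), and the differences by its second probe, -0.57 and -0.35, were not called. Tpm4, a tropomyosin of non-muscle cells, was the 1 gene of this list called between the liver groups, 1.57-fold higher in WT1-high cells (log2 difference 0.65, SE 0.15, limma adjusted p = 0.0380). Leaving out 1 array in turn, it was called in 1 of 9 fits (limma adjusted p between 0.0280 and 0.119).

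Most tested transcription factors of the SRF and myocardin list were higher in the liver groups, opposite to Acta2, Tagln and Myl9. The list also holds factors outside these families, among them Klf4, Gata6, Wwtr1 and Foxf1. Of SRF and the myocardin family themselves, Srf alone was called. Of 11 genes in this list 8 were tested. Against WT1-negative cells 7 were called higher and none lower in WT1-high cells, beside 26.5% and 33.1% of all probes. Their median log2 difference was 1.20, against -0.10 over all probes tested. In WT1-intermediate cells 6 were called higher and none lower (median 0.87, against -0.13), beside 24.4% and 33.6% of all probes. Myocd, which encodes myocardin, was detected on 1 array and was not tested. Of its relatives, Mkl2 was not tested, and Mkl1, detected on 3 arrays, was not called in either comparison (log2 differences -0.25 and -0.05). Srf was 2.30-fold higher in WT1-high than in WT1-negative cells (log2 difference 1.20, SE 0.15, limma adjusted p = 3.43e-05), although its second probe gave 0.12. Klf4, which represses smooth muscle genes in vascular cells, was 18.9-fold and 18.6-fold higher in WT1-high and WT1-intermediate cells (limma adjusted p = 8.87e-09 and 1.34e-08). Gata6, a zinc finger factor of mesoderm, was 13.7-fold and 9.38-fold higher (limma adjusted p = 2.11e-07 and 9.35e-07). Wwtr1, the Hippo pathway coactivator TAZ, was 6.56-fold and 5.25-fold higher (limma adjusted p = 1.17e-07 and 4.06e-07), but its second probe gave 0.28 and -0.25. Foxf1, a forkhead factor of liver mesenchyme, was higher by 1.20 in WT1-high cells (limma adjusted p = 4.59e-04) and by 0.96 in WT1-intermediate cells on the log2 scale (limma adjusted p = 0.00219, not called under median scaling). None of the 8 was called between the liver groups, but 5 were called higher in WT1-high cells under median scaling.

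**Figure D4:**
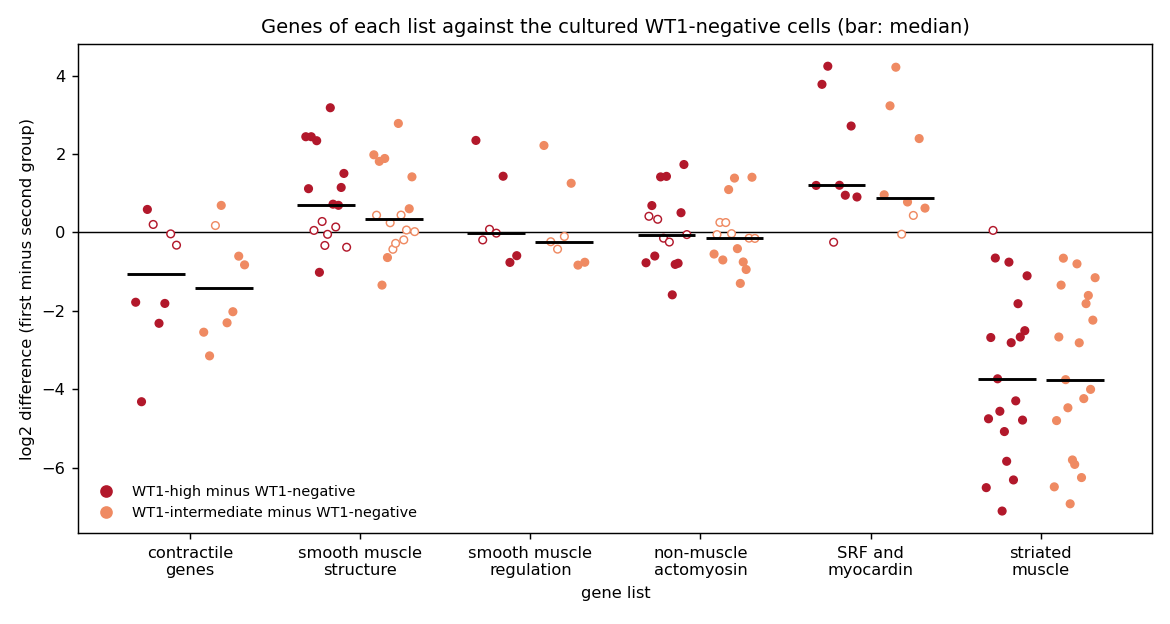
Log2 difference of each tested gene of 6 lists against the cultured WT1-negative cells, for WT1-high and WT1-intermediate cells, with filled points for an adjusted p under 0.05 and bars at the median. The medians of the contractile genes are -1.05 and -1.43. Those of the SRF and myocardin list, which also holds factors outside these families, are 1.20 and 0.87. Those of the striated muscle genes are -3.73 and -3.76. Of these striated muscle genes 13 were detected on no WT1-high array and 11 on no WT1-intermediate array. Those detected in neither liver group passed the filter only through the cultured arrays.

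Likeness to Acta2 was measured as the root mean square difference between log2 profiles over the 9 arrays, each profile first centred on its own mean. Among 14658 other genes the 5 nearest were Foxm1, Tyms-ps, Npc1, Akap7 and Scamp5, at distances of 0.19, 0.23, 0.25, 0.26 and 0.26. None of them is a contractile gene of the set. Tagln ranked 39 at 0.36 and Myl9 ranked 45 at 0.37, ahead of the other members. Tpm2 ranked 2541, Tpm1 4295, Actg2 9182, Cnn2 9873 and Myh11 10966. These distances describe 9 arrays in 3 groups and carry no test.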

How the data were processed

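RNA of sorted cells, labelled with an Ambion TotalPrep kit, was hybridised to 9 Illumina MouseWG-6 v2.0 arrays. The deposited tables held, per array and probe, the authors' summary intensity exported from BeadStudio, linear and not normalized, with a deposited detection p-value. A joined table held the same intensities (largest difference 0). One in vivo column was headed 29 where the label gives 30. It was taken as WT1-intermediate replicate 30, and its values equalled those of that sample in the joined table. Submitters' processing notes and the paper's methods name limma.

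Following those methods, intensities were background corrected from 936 negative controls, quantile normalized and put on the log2 scale with limma 3.58.1 (neqc, offset 16) in R 4.3.3. The fit kept probes whose detection p was below 0.05 on 3 or more arrays (20573 of 45281), a filter that the methods do not state. A linear model with 3 group means was fitted to all 9 arrays, followed by eBayes. A fold written "at least" sets the brighter group against the background limit of a group with no detection, taken on each array as the higher of the lowest signal among detected probes and the probe's own signal. Errors are SE of the fit unless marked SD, and the number of arrays limits the precision.

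The study states that in vivo arrays came from 3 animals and that replicates are animals or independent cell isolations. Deviations from group means, across probes, correlated at 0.35 for replicate 1 of both liver groups, 0.34 for replicate 8 and 0.47 for 29 with 30, and at -0.39 to 0.03 for other combinations, so the numbers were taken to pair the arrays. The methods name no block, and blocks were run as alternatives.

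Genes named are all members, up to 4 called genes with the largest difference per list and comparison, and the 5 genes nearest Acta2. Myocd and its relatives are named as well. Of 180 genes in the lists 172 matched by symbol, 1 by older symbol, 1 by Entrez gene ID and 6 not at all. Members and lists were chosen with earlier results of these data known. Tests were run on simulated data with 200 of 20573 probes changed by 2 on the log2 scale, of which 93.5% to 94.5% were recovered. In addition, 8 to 14 unchanged probes were called. The simulated arrays were not paired. A change of 2 exceeds every member difference between the liver groups, so recovery of differences of that size was not measured. Alternatives covered background correction, normalization, offset, filter, arrays fitted, array weights, blocks, second probes and leaving out each array.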

Additional observations from a re-analysis of the deposited data

How the results depend on the processing

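Counts of members called depended on the setting mainly between the liver groups. There 1 of 8 genes was called, 3 under median scaling, 0 without the filter on dim probes, 0 with only the 6 arrays compared in the fit, 0 with the in vivo table alone, 2 with the random replicate block (Acta2, Tpm1) and 2 with the fixed replicate block (Acta2, Actg2). Leaving out 1 array gave 0 to 1. Acta2 lost its call without the filter (limma adjusted p = 0.0743), with the 6 arrays (0.0938) and with the in vivo table alone (0.0777). Against WT1-negative cells the filter on all 9 arrays left 3 and 4 called, since fewer members were tested, and leaving out 1 array gave 4 to 5 and 7 to 7. The blocks changed no other call of a member.

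Median scaling moved the median of all probes from 0.05 to 0.45 between the liver groups and from -0.13 to -0.44 for WT1-intermediate minus WT1-negative, and the share of calls that were higher from 25.5% to 95.5% and from 42.1% to 23.1%. Under it Tpm1 (1.25) and Tpm2 (1.20) were called between the liver groups, 7 of 16 structural, 4 of 15 non-muscle and 5 of 8 transcription factor genes were called higher there (1, 1 and 0 otherwise), and Cnn2 in WT1-high and Myh11 in WT1-intermediate cells lost their calls. All probes called between the liver groups numbered 730, and 2684 under median scaling, 1796 and 1520 with the random and fixed block, 473 without background correction, 335 without the filter, 339 with the 6 arrays, 439 with the in vivo table alone and 324 to 866 leaving out 1 array. Without background correction the member medians against WT1-negative cells were -0.49 and -0.71.

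Signs that turned belonged to differences near 0 or to second probes. Between the liver groups these were Tagln (-0.0436 by cyclic loess, -0.00503 to 0.46 leaving out 1 array), Myl9 (0.50 by median scaling, 0.0198 with array weights, -0.18 to 0.19 leaving out 1 array) and Cnn2 (-0.0349 by its second probe). For WT1-high minus WT1-negative these were Tpm1 (0.0059 by cyclic loess, -0.20 to 0.0824 leaving out 1 array) and the second probe of Rock2 (0.92). For WT1-intermediate minus WT1-negative these were Cnn2 (-0.42 by median scaling, -0.00382 to 0.34 leaving out 1 array) and the second probes of Cald1 (-0.0468), Rock2 (0.42) and Wwtr1 (-0.25). Causes were not tested. Acta2, Actg2, Tagln and Myl9 kept direction and call against WT1-negative cells in all alternatives in which they were tested. Dim probes limit Tagln, Myh11 and Actg2.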

Other observations

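Markers of vessel-associated and other liver cells differed between the groups as follows. Against WT1-negative cells the shares of all probes called higher and lower were 26.5% and 33.1% for WT1-high cells. For WT1-intermediate cells these shares were 24.4% and 33.6%. Between the liver groups 3.55% of all probes were called, with 0.904% higher in WT1-high cells. Of 6 tested pericyte and vascular smooth muscle markers, 4 were called lower and 1 higher in WT1-high than in WT1-negative cells, and 3 were called lower in WT1-intermediate cells. Mcam, an adhesion molecule of vascular smooth muscle, had log2 differences of -2.51 and -2.43. Of 9 tested portal and adventitial fibroblast markers, 7 were called higher and 1 lower against WT1-negative cells in each liver group, and 2 were called lower in WT1-high cells than in WT1-intermediate cells. Of 12 tested endothelial markers, 3 were called lower and none higher in WT1-high cells than in WT1-intermediate cells. Of 6 tested hepatocyte markers, all 6 were called higher in WT1-high arrays than on the cultured arrays. In WT1-intermediate arrays 4 were so, and none was called between the liver groups. By the tested probe 3 of the 6 were detected on no cultured array and passed the filter only through the liver arrays. Of 10 tested stellate cell markers, Des was called higher and 2, Pdgfrb and Hgf, lower in WT1-high cells than in WT1-intermediate cells.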
